A study of Danio rerio with 24 samples.

Results

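Germ cells in which smad1 had been targeted were compared between mid-gastrulation (75% epiboly) and the next day (1 dpf, days post-fertilization) in zebrafish embryos with a germline-specific knockout (smad1-cKO). The cells are primordial germ cells (PGCs), from which eggs and sperm descend. The comparison rests on 3 libraries at each stage, which make 6 of the 24 samples of the series. They were chosen by their labelled genotype and stage. The smad1-cKO embryos, like their wild-type (WT) controls, were kept in Holtfreter's water, and the PGCs were sorted by the fluorescent label that a transgene gives them. The 6 control libraries, 3 per stage, were read beside them as the background. The labels name no driver of the knockout, no separate clutches and no number of sorted cells for the RNA libraries, and the spread that the p-values measure may therefore be a technical one between libraries. The series addressed what BMP signalling through Smad proteins does in germ cells, and the question here is how the knockout cells differed between the gastrula and the following day.

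Zebrafish PGCs are set apart by germ plasm, maternal RNA and protein that a few cells inherit in the cleaving embryo. They then migrate toward the future gonad, following the chemokine Cxcl12 through the receptor Cxcr4b. In the same period maternal RNA is replaced by transcripts of the embryo's own genome. BMP ligands bind receptor kinases that phosphorylate Smad1, Smad5 and Smad9, which enter the nucleus with Smad4 and act on target genes such as the id family.

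RNA was measured as TPM, a relative transcript level corrected for length in which each library has the same total, so a gain in one place is a loss elsewhere. At 75% epiboly 13371, 13702 and 16657 features were above 0 TPM, and at 1 dpf 22814, 21512 and 22036 (here and below, values are in the order of replicates 1, 2 and 3). Read depth cannot be read from TPM, which leaves the precision of each library unknown. A set of 9 very abundant features with clone names took 28.6%, 33.8% and 35.9% of all TPM at 75% epiboly and 2.69%, 2.46% and 2.60% at 1 dpf. Across 16456 genes the Pearson correlation of log2(TPM + 1) was 0.873 to 0.892 within 75% epiboly, 0.914 to 0.934 within 1 dpf and 0.625 to 0.678 between the stages. Some libraries stood apart. At 1 dpf, replicates 1 and 2 held skin keratins that replicate 3 lacked, and replicate 1 held the most muscle transcript. At 75% epiboly, replicate 2 was highest in germ cell genes, and replicate 3 was lowest in them and highest in gastrula genes. The stages come from separately deposited tables and separate sorts, which cannot be told apart from stage.

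Of 16456 genes tested with limma on log2(TPM + 1), 7316 were called higher at 1 dpf (44.5%) and 1628 lower (9.89%) at an adjusted p under 0.05. The median difference over all genes was 1.08 on the log2 scale as deposited. It was 0.58 after trimmed-mean scaling, 0.05 after quantile normalization and 0.64 after rescaling without mitochondrial, ribosomal protein and abundant clone-named features. Of the calls, 81.8% were higher as deposited, against 67.7%, 48.5% and 67.3% under those scalings. For single genes and gene groups, "rose" and "fell" below therefore mean a call in the same direction under all 4 scalings. The call also had to hold on the deposited scale when any 1 of the 6 libraries was left out. Before that last demand, 3425 genes were called higher and 1625 lower under all 4 scalings. The deposited scale gave the most higher and the fewest lower calls, so the demand is stricter for falls than for rises. By that rule 3367 genes rose (20.5%) and 962 fell (5.85%). Without 1 dpf replicates 1 and 2, replicate 3 alone against 75% epiboly gave 2122 higher and 252 lower calls as deposited. In 62.2% of genes the values of the stages did not overlap. Most genes named below were picked from their lists by smallest p or highest level, so non-overlap among them adds no separate support. Of the genes tested, 47 were listed at 0 in all 1 dpf libraries and 1690 in all 75% epiboly libraries. Of the 3367 genes that rose, 622 were among those 1690 and so entered the test through 1 dpf alone. The 1690 include genes that most cells use, so they are described as listed at 0, with no fold. Group medians are given relative to the median of all genes, and a group's count is to be read against the shares of 20.5% and 5.85%. Members enter a count only if they averaged at least 1 TPM over the 6 libraries, which some did through 1 stage alone.

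**Figure D1:**
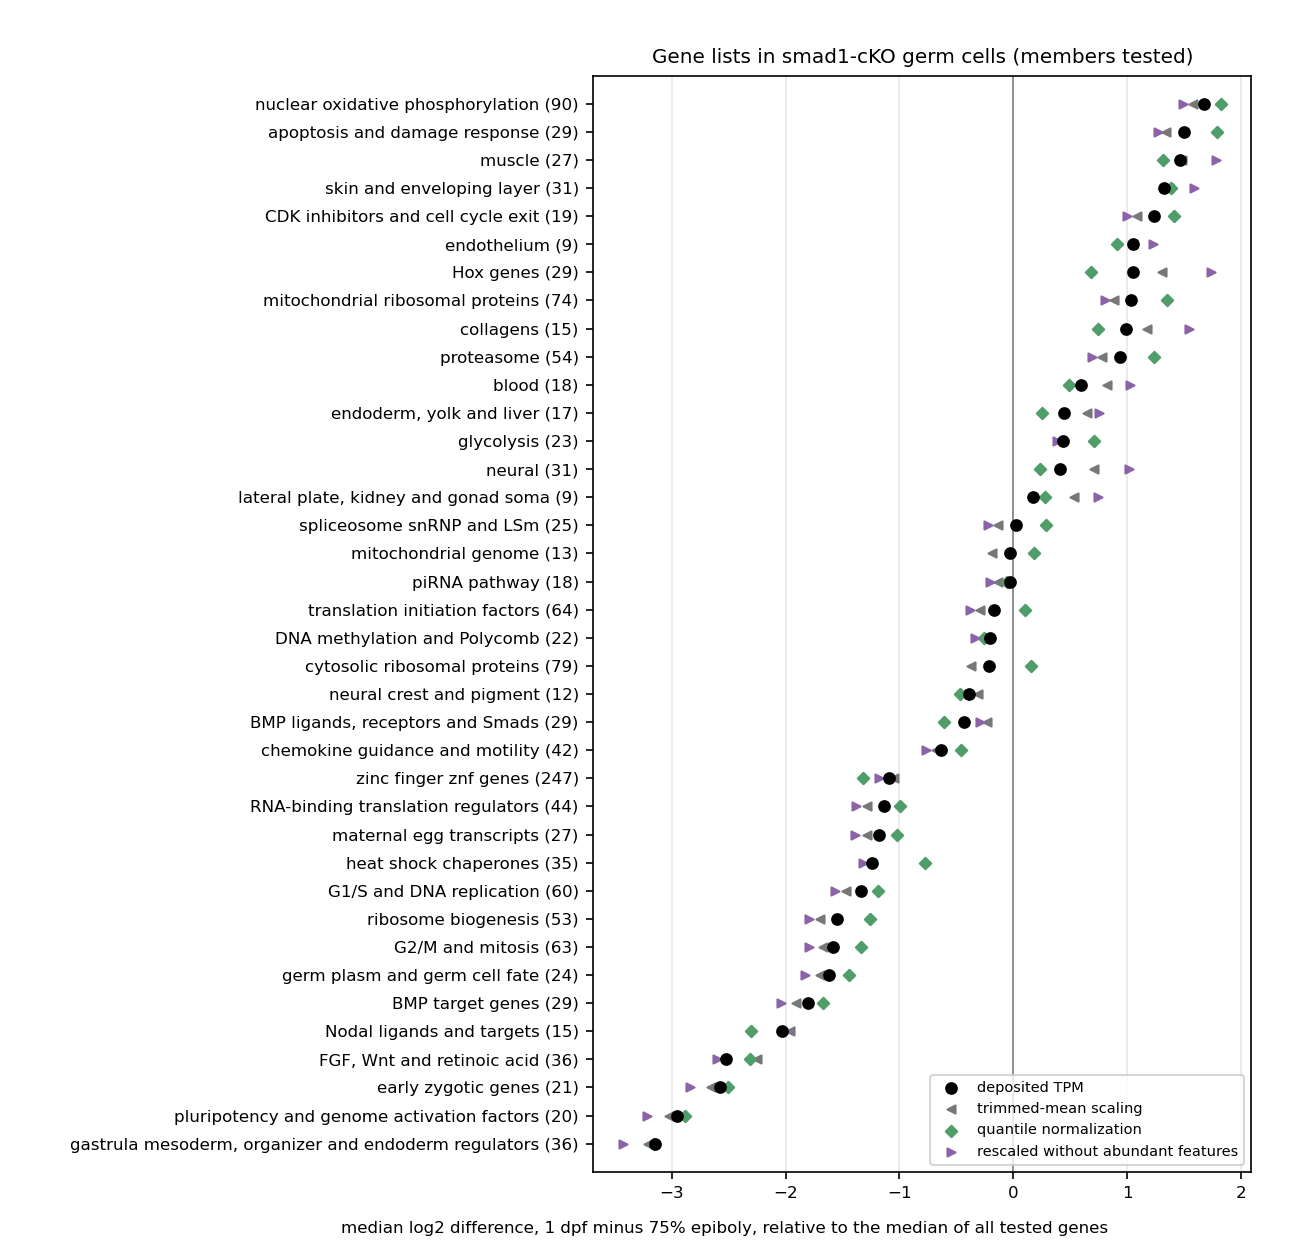
Median log2 difference of each gene list between 1 dpf and 75% epiboly in smad1-cKO PGCs, relative to the median of all tested genes (x axis, log2 units), with the number of members tested in parentheses. Each marker is 1 scaling of the data. The lists range from -3.15 for gastrula regulators to 1.68 for nuclear oxidative phosphorylation on the deposited scale.

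The targeted gene was low in the knockout at both stages. In smad1-cKO PGCs, smad1 was 2.68, 1.11 and 5.09 TPM at 75% epiboly and 16.4, 12.5 and 11.7 TPM at 1 dpf, a log2 difference of 1.99 ± 0.47 (SE, limma adjusted p = 0.0091). This call did not hold under the other scalings, where the adjusted p was 0.0543, 0.132 and 0.0518. In control PGCs smad1 was 9.68, 13.5 and 17.9 TPM at 75% epiboly and 140.0, 140.0 and 134 TPM at 1 dpf. All 6 knockout values lay below every control value of 1 dpf, and at 75% epiboly the genotypes did not overlap either. Amplicons from about 300 sorted cells of each group, taken at 15 somites and so between the stages compared here, read the 3 guide RNA target regions of smad1. In smad1-cKO PGCs 81.1%, 62.6% and 37.2% of the aligned reads were modified by an insertion or a deletion (85644 of 105598, 176032 of 280997 and 33258 of 89362). In control PGCs the shares were 0.306%, 0.156% and 1.28%. The exact Clopper-Pearson 95% intervals of the knockout shares are 80.9% to 81.3%, 62.5% to 62.8% and 36.9% to 37.5%. They cover counting error only, since PCR reads are not independent molecules, and there was 1 library per group. Somatic cells of the smad1-cKO embryos carried 0.476%, 0.156% and 1.38%, and those of controls 0.260%, 0.140% and 1.39%. At the first region the interval of smad1-cKO soma (0.436% to 0.519%) lay above that of control soma (0.235% to 0.287%). At the other regions the somatic shares of the genotypes were near each other. Reads without an insertion or deletion thus remained in the sorted smad1-cKO PGC sample at each region. Whether they came from germ cells or from other cells in the sort was not tested.

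The other Smads of the pathway differed in direction. Of smad5, a BMP-activated Smad with a large maternal supply, the levels were 87.995, 59.5 and 101 TPM at 75% epiboly and 29.3, 58.6 and 34.9 TPM at 1 dpf. It was called lower under all 4 scalings (log2 difference -1.03 ± 0.35, limma adjusted p = 0.038 as deposited). On the deposited scale the call ended without 75% epiboly replicate 1 (0.0796) or 3 (0.0957) and without 1 dpf replicate 1 (0.130) or 3 (0.120). The third BMP-activated Smad, smad9, was 52.02, 21.2 and 48.5 TPM at 75% epiboly and 122, 116 and 131 TPM at 1 dpf. Its stages did not overlap, and it was called higher as deposited (log2 difference 1.67 ± 0.36, limma adjusted p = 0.0062) but missed the threshold after trimmed-mean scaling (0.0531) and quantile normalization (0.0613). For smad4a, which encodes the shared partner of activated Smads, the libraries held 48.8, 35.3 and 54.4 TPM at 75% epiboly and 3.69, 6.29 and 1.52 TPM at 1 dpf. It fell, by a log2 difference of -3.39 ± 0.46 (limma adjusted p = 0.000771). Thus at 1 dpf smad9 had the highest level of these 4 genes in each library and smad4a the lowest.

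Germ cell genes were abundant at both stages, in keeping with the label PGC. Of 24 germ plasm and germ cell fate genes, all tested, none rose and 1, tfap2c, fell. A call of lower was made for 8 under all 4 scalings (9.87% of all genes). Only that of tfap2c also held on the deposited scale with each library left out in turn. Leaving out libraries was not tried under the other scalings. The group median was -1.62 relative to all genes, or -0.54 on the deposited scale. The translational repressor nanos3, needed for germ cell survival, was 6856, 21249 and 2414 TPM at 75% epiboly and 15149, 10189 and 12122 TPM at 1 dpf. These values overlap, and replicate 2 at 75% epiboly was the highest of all. As deposited nanos3 was not called (log2 difference 0.80 ± 0.67, limma adjusted p = 0.333). It was called higher after quantile normalization (2.51, limma adjusted p = 0.00226) but not under the remaining scalings (0.860 and 0.901). The RNA helicase ddx4 (vasa) was 1272, 2545 and 646 TPM at 75% epiboly and 598, 325 and 661 TPM at 1 dpf. It was called lower under all 4 scalings (log2 difference -1.34 ± 0.49, limma adjusted p = 0.0485), with overlapping stages. Under the other scalings the limma adjusted p of ddx4 was 0.00951, 0.00896 and 0.0132. On the deposited scale only leaving out 75% epiboly replicate 3 kept the call, and without any other library the adjusted p was 0.0900 to 0.196. The germ granule protein gene tdrd7a was 790.4, 1241 and 659.6 TPM at 75% epiboly and 568, 335 and 377 TPM at 1 dpf, with all 1 dpf values below all earlier ones. Its call on the deposited scale (log2 difference -1.05 ± 0.29, limma adjusted p = 0.0176) ended without 1 dpf replicate 2 (0.0865) or 3 (0.0809). Under the other scalings, with all libraries, the limma adjusted p of tdrd7a was 0.00246, 0.0024 and 0.00314.

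Other well-known germ cell genes did not pass the test. The RNA-binding protein gene dnd1, which protects germ cell RNAs from microRNAs, was 705, 2505 and 239 TPM at 75% epiboly and 1093, 868 and 553 TPM at 1 dpf (limma adjusted p = 0.917). For dazl, a translational activator, the levels were 63.4, 286 and 79.4 TPM at 75% epiboly and 262, 251 and 196 TPM at 1 dpf (limma adjusted p = 0.126). The carbonic anhydrase gene ca15b was 827, 4684 and 718 TPM at 75% epiboly and 2551, 1084 and 1556 TPM at 1 dpf (limma adjusted p = 0.812). In each of these the earlier libraries spread more widely than the later ones, with 75% epiboly replicate 2 highest. Without that library nanos3, dazl and ca15b were called higher as deposited, with adjusted p of 0.0137, 0.00168 and 0.0300. The summed level of the list was 12535, 35605 and 5840 TPM at 75% epiboly and 21897, 14459 and 17147 TPM at 1 dpf (exact two-sided permutation p = 0.7, smallest possible 0.1). In such sorted bulk samples fewer germ cells and less RNA per germ cell cannot be told apart. The transcription factor gene tfap2c, the member that fell, was 61.98, 10.3 and 21.9 TPM at 75% epiboly and 2.58, 4.17 and 0.775 TPM at 1 dpf (log2 difference -2.99 ± 0.69, limma adjusted p = 0.00803). At 75% epiboly it was lowest in replicate 2, the library with the most germ cell transcript. The share of its level that came from other cells in the sort was not tested.

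In the piRNA pathway, which makes small RNAs that silence transposons, 3 of 18 members rose and none fell. henmt1 was 3.09, 3.28 and 5.83 TPM at 75% epiboly and 97.8, 129 and 120.1 TPM at 1 dpf, a log2 difference of 4.56 ± 0.33 (SE, limma adjusted p = 0.000126). It encodes the enzyme that methylates the ends of piRNAs. The mitochondrial surface factor pld6 was 7.205, 23.5 and 3.44 TPM at 75% epiboly and 119, 139.6 and 154 TPM at 1 dpf, a log2 difference of 3.84 ± 0.58 (SE, limma adjusted p = 0.00124). For the Tudor protein gene tdrkh the values were 3.42, 5.99 and 3.503 TPM at 75% epiboly and 41.01, 39.8 and 69.2 TPM at 1 dpf, a log2 difference of 3.25 ± 0.38 (limma adjusted p = 0.000448). In all 3 genes every 1 dpf value exceeded every earlier value, and 62.2% of all genes did not overlap between the stages. In control PGCs the log2 differences of henmt1, pld6 and tdrkh were 5.28, 4.03 and 3.35.

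**Figure D2:**
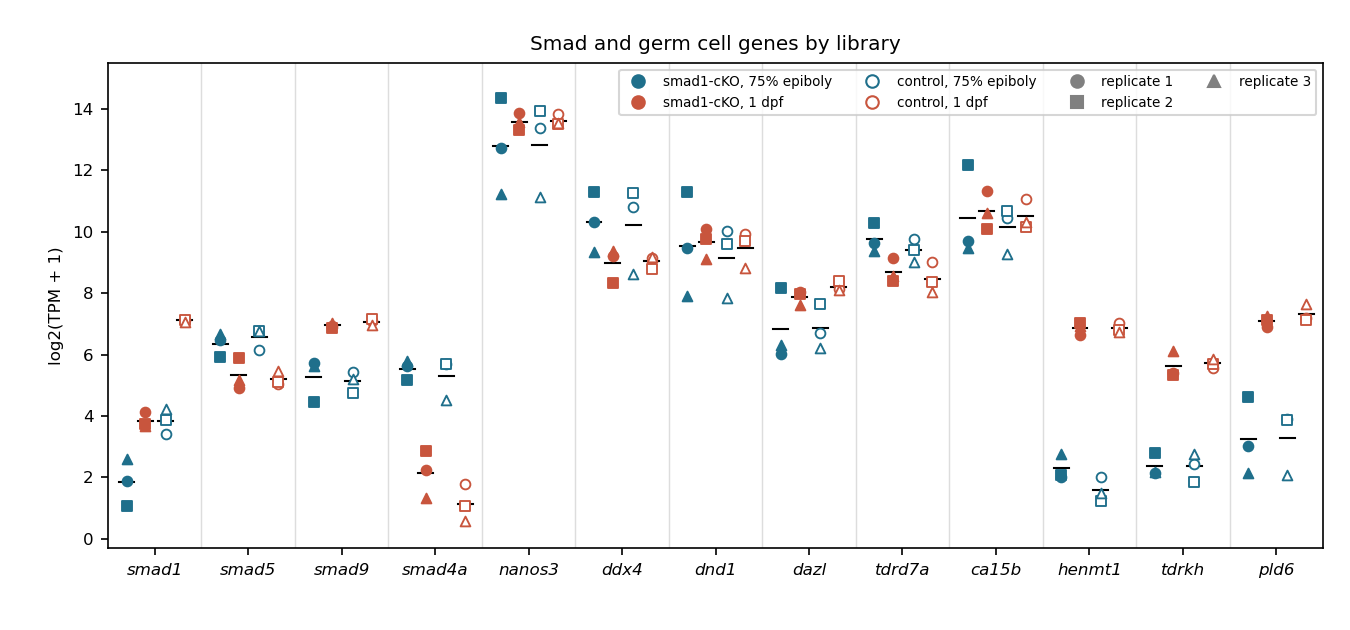
Levels of 13 Smad, germ cell and piRNA genes in each library, as log2(TPM + 1), with filled symbols for smad1-cKO and open symbols for control PGCs, blue for 75% epiboly and red for 1 dpf. Symbol shapes are replicates and short bars are group means. Within each stage the smad1 values of the knockout stay below the controls, and henmt1, tdrkh and pld6 are higher at 1 dpf in both genotypes.

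BMP pathway genes moved in both directions. Of 31 ligands, receptors and Smads 29 were tested, 5 rose and 4 fell, and the median was -0.43 relative to all genes (-1.12 without the 3 genes listed at 0 in all 75% epiboly libraries). The ligand bmp7b was listed at 0 in all 75% epiboly libraries and was 14.7, 22.6 and 13.3 TPM at 1 dpf. The ligand bmp2a was likewise listed at 0 and then 7.39, 14.7 and 19.98 TPM. The type I receptor bmpr1ba was 0, 0.723 and 0.245 TPM at 75% epiboly and 16.7, 13.5 and 18.3 TPM at 1 dpf, a log2 difference of 3.73 ± 0.40 (SE, limma adjusted p = 0.000319). The organizer BMP ligand admp was 31.3, 28.5 and 76.98 TPM at 75% epiboly and 1.43, 4.14 and 1.299 TPM at 1 dpf, a log2 difference of -3.78 ± 0.52 (SE, limma adjusted p = 0.000862). The falling members thus included a ligand of the gastrula organizer and smad4a. Both bmp7b and bmp2a passed the filter through 1 dpf alone, so their presence in those libraries adds no separate support. In control PGCs at 75% epiboly bmp7b was 0, 1.79 and 1.33 TPM, and bmp2a was listed at 0.

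Known BMP target genes also split. Of 30, 29 were tested, 5 rose and 7 fell, with a median of -1.81 relative to all genes (-1.91 without 2 genes listed at 0). The risers included inhibitors of basic helix-loop-helix factors. id2a was 0.164, 1.94 and 3.03 TPM at 75% epiboly and 79.8, 81.1 and 90.9 TPM at 1 dpf, a log2 difference of 5.14 ± 0.49 (SE, limma adjusted p = 0.000219). The related id4 was 0, 0 and 0.489 TPM at 75% epiboly and 39.3, 42.5 and 49.2 TPM at 1 dpf, and id2b was 0, 0 and 1.03 TPM at 75% epiboly and 43.7, 46.99 and 48.2 TPM at 1 dpf. These 3 genes went from 3.03 TPM or less to at least 39.3 TPM in each library. In contrast id1, the most abundant member, was 693, 612 and 804 TPM at 75% epiboly and 627, 597 and 693 TPM at 1 dpf, with overlapping stages (log2 difference -0.13 ± 0.17, limma adjusted p = 0.542). Under the other scalings it was called lower, with adjusted p of 0.0146, 0.00499 and 0.0048. Among the 7 that fell, 4 are given here. The homeobox gene cdx4 was 470.1, 245 and 363 TPM at 75% epiboly and 20.3, 15.8 and 49.4 TPM at 1 dpf, a log2 difference of -3.73 ± 0.45 (SE, limma adjusted p = 0.000503). The homeobox gene eve1 was 41.6, 73.2 and 137 TPM at 75% epiboly and 1.85, 3.71 and 0.303 TPM at 1 dpf, a log2 difference of -4.87 ± 0.60 (SE, limma adjusted p = 0.000552). The ventral repressor gene ved was 483, 422 and 514 TPM at 75% epiboly and 209, 115 and 197 TPM at 1 dpf and fell by 1.49 on the log2 scale (limma adjusted p = 0.00264). The pseudoreceptor gene bambia, an inhibitor of the pathway, was 201, 143 and 128 TPM at 75% epiboly and 88.8, 64.7 and 55.7 TPM at 1 dpf and fell by 1.16 (limma adjusted p = 0.0102).

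Many genes of the early embryo's pluripotent state fell. Of 20 pluripotency and genome activation factors, all tested, 8 fell and 1 rose, and the median was -2.95 relative to all genes. The zinc finger gene sall4 was 108, 121 and 115 TPM at 75% epiboly and 6.098, 6.19 and 5.65 TPM at 1 dpf, a log2 difference of -4.05 ± 0.26 (SE, limma adjusted p = 9.42e-05). pou5f3 was 56.4, 160.0 and 230.3 TPM at 75% epiboly and 4.08, 1.53 and 4.52 TPM at 1 dpf, a log2 difference of -4.96 ± 0.57 (SE, limma adjusted p = 0.000432). It is the zebrafish counterpart of Oct4. The activation factor sox19b was 184, 139 and 75.5 TPM at 75% epiboly and 26.6, 5.98 and 37.7 TPM at 1 dpf, a log2 difference of -2.68 ± 0.65 (limma adjusted p = 0.00968). Within the myc family, mych was 219, 383 and 197 TPM at 75% epiboly and 20.4, 16.3 and 9.46 TPM at 1 dpf, whereas myca was 0, 0 and 0.162 TPM at 75% epiboly and 13.4, 16.4 and 9.72 TPM at 1 dpf. The first fell by 4.02 and the second rose by 3.72 on the log2 scale (limma adjusted p = 0.000214 and 0.000287). Of 23 early zygotic genes, the first that the embryo transcribes, 21 were tested, 7 fell and 1, isg15, rose (median -2.58 relative to all genes), and several of these, such as tbx16, ved and dusp6, also stand in other lists. The Nodal effector foxh1 was 60.4, 48.3 and 52.5 TPM at 75% epiboly and 1.69, 2.03 and 3.43 TPM at 1 dpf and fell by 4.04 (limma adjusted p = 0.000168).

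Many gastrula patterning genes fell. Of 40 regulators of mesoderm, organizer and endoderm 36 were tested, 16 fell and none rose, with a median of -3.15 relative to all genes. The T-box gene tbx16 was 291, 446 and 609.5 TPM at 75% epiboly and 12.1, 6.42 and 4.54 TPM at 1 dpf, a log2 difference of -5.73 ± 0.41 (SE, limma adjusted p = 0.000124). tbxta was 107, 195 and 442 TPM at 75% epiboly and 9.93, 21.3 and 9.51 TPM at 1 dpf, a log2 difference of -3.95 ± 0.54 (SE, limma adjusted p = 0.000851). It is the zebrafish Brachyury gene. The notochord gene noto was 48.3, 29.9 and 123 TPM at 75% epiboly and 0.417, 0 and 0 TPM at 1 dpf. The apelin receptor gene aplnrb was 36.6, 56.7 and 247 TPM at 75% epiboly and 0.34994, 0.692 and 0.10012 TPM at 1 dpf, and the segmentation clock gene her1 was 55.2, 95.3 and 247 TPM at 75% epiboly and 0.89024, 0.884 and 0 TPM at 1 dpf. The forkhead gene foxd5 was 127, 221 and 409 TPM at 75% epiboly and 4.84, 3.701 and 0.783 TPM at 1 dpf. For each of these genes 75% epiboly replicate 3, the library with the least germ cell transcript, was the highest. The summed level of the list was 1862, 2072 and 3680 TPM at 75% epiboly and 443, 407 and 402 TPM at 1 dpf, and the share of it that came from other cells in the sort was not tested.

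Targets and members of neighbouring signalling pathways fell with them. Of 17 Nodal genes 15 were tested, 5 fell and none rose (median -2.03 relative to all genes). Of 41 genes of FGF, Wnt and retinoic acid signalling 36 were tested, 15 fell and none rose (median -2.53, or -3.06 without 3 genes listed at 0). The values of the FGF targets named here did not overlap between the stages, nor did those of 62.2% of all genes. etv4 was 184, 213 and 246 TPM at 75% epiboly and 15.7, 14.5 and 7.26 TPM at 1 dpf, a log2 difference of -4.06 ± 0.34 (SE, limma adjusted p = 0.000161). For etv5b the values were 89.1, 85.5 and 85.1 TPM at 75% epiboly and 14.7, 17.1 and 13.7 TPM at 1 dpf, and for etv5a they were 224, 193 and 125 TPM at 75% epiboly and 24.9, 27.3 and 12.9 TPM at 1 dpf. The FGF feedback phosphatase gene dusp6 was 93.5, 152 and 58.9 TPM at 75% epiboly and 11.6, 12.7 and 6.45 TPM at 1 dpf. The Wnt target sp5l was 175, 112 and 396 TPM at 75% epiboly and 6.73, 6.38 and 4.77 TPM at 1 dpf, a log2 difference of -4.85 ± 0.46 (SE, limma adjusted p = 0.00022).

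Some maternal RNAs still present at gastrulation fell. Of 30 maternal egg transcripts 27 were tested, 5 fell and none rose, and the median of -1.18 relative to all genes corresponds to -0.10 on the deposited scale. As deposited, 2 were called higher and 8 lower, the latter under all 4 scalings. The meiotic cyclin gene ccna1 was 34.8, 101 and 68.6 TPM at 75% epiboly and 3.54, 5.46 and 5.49 TPM at 1 dpf, a log2 difference of -3.46 ± 0.44 (SE, limma adjusted p = 0.000624). The ubiquitin ligase gene trim36 was 8.42, 12.2 and 15.4 TPM at 75% epiboly and 0.785, 0.267 and 0.753 TPM at 1 dpf. The oocyte kinase gene wee2 was 102, 106 and 40.7 TPM at 75% epiboly and 17.4, 25.5 and 16.9 TPM at 1 dpf, a log2 difference of -1.91 ± 0.42 (limma adjusted p = 0.00666). The poly(A)-binding gene pabpn1l was 303, 317 and 179.7 TPM at 75% epiboly and 108, 88.5 and 110.4 TPM at 1 dpf, a log2 difference of -1.33 ± 0.27 (limma adjusted p = 0.00485). It thus kept the highest level of these 4 in every library of 1 dpf.

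Many genes of mitochondrial energy metabolism rose. Of 94 nuclear genes of oxidative phosphorylation 90 were tested, 67 rose and none fell. The median was 1.68 relative to all genes, and 1.41 without 6 genes listed at 0 at 75% epiboly. Their summed level went from 13942, 10234 and 10225 TPM to 47416, 45088 and 48801 TPM. The complex I subunit ndufb7 was 37.1, 26.2 and 28.3 TPM at 75% epiboly and 769, 746 and 800.4 TPM at 1 dpf, a log2 difference of 4.63 ± 0.22 (SE, limma adjusted p = 3.36e-05). The complex I subunit ndufs4 was 64.1, 94.1 and 61.5 TPM at 75% epiboly and 854, 767 and 942 TPM at 1 dpf, a log2 difference of 3.55 ± 0.23 (SE, limma adjusted p = 9.42e-05). The abundant complex IV subunit gene cox7c was 968, 539.9 and 680.3 TPM at 75% epiboly and 1976, 2005 and 2208 TPM at 1 dpf (log2 difference 1.54 ± 0.22, limma adjusted p = 0.00105). Not all subunits could be followed: cox5b2 and cox6b1 were listed at 0 in all 75% epiboly libraries and at 127 to 190.0 TPM and 119 to 188 TPM at 1 dpf. In control PGCs at 75% epiboly cox5b2 was 0.990, 2.24 and 0 TPM, and cox6b1 was listed at 0. Whether reads were assigned to a near-identical copy was not tested.

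The mitochondrial ribosome and the proteasome showed the same direction. Of 74 mitochondrial ribosomal protein genes, all tested, 52 rose and none fell (median 1.04 relative to all genes). Among them mrpl20 was 117, 88.5 and 66.7 TPM at 75% epiboly and 721, 599 and 722 TPM at 1 dpf, and mrpl33 was 28.6, 28.95 and 22.6 TPM at 75% epiboly and 325, 244 and 349 TPM at 1 dpf. Of 57 proteasome genes 54 were tested, 34 rose and none fell (median 0.93). The catalytic subunit psmb7 was 559, 358 and 561 TPM at 75% epiboly and 2353, 2399 and 2822 TPM at 1 dpf, a log2 difference of 2.38 ± 0.21 (SE, limma adjusted p = 0.00019). The core subunit psma3 was 194, 259 and 202 TPM at 75% epiboly and 1414, 1308 and 1364 TPM at 1 dpf, and the regulatory subunit psmd4b was 65.4, 65.4 and 67.8 TPM at 75% epiboly and 549, 627 and 766 TPM at 1 dpf. The ATPase subunit psmc1a was 37.4, 24.5 and 23.9 TPM at 75% epiboly and 284, 293 and 299 TPM at 1 dpf. In each of these genes every 1 dpf value exceeded every earlier value (62.2% of all genes did not overlap between the stages).

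The mitochondrial genome itself did not move as a block. Of its 13 protein-coding genes 3 rose and 1 fell, and the median was -0.03 relative to all genes, or 0.18 after quantile normalization. The cytochrome oxidase genes rose. mt-co1 was 1091, 815 and 289 TPM at 75% epiboly and 4378, 4919.6 and 4427 TPM at 1 dpf, a log2 difference of 2.84 ± 0.44 (SE, limma adjusted p = 0.00133). For mt-co3 the values were 1209, 823 and 522 TPM at 75% epiboly and 4702, 4169 and 4402 TPM at 1 dpf, and for mt-co2 they were 1897, 1119 and 750.0 TPM at 75% epiboly and 4662, 4759.8 and 4782 TPM at 1 dpf. The complex I gene mt-nd4l was 583, 375 and 256 TPM at 75% epiboly and 144, 153 and 116 TPM at 1 dpf and fell by 1.48 on the log2 scale (limma adjusted p = 0.00564). The 13 protein-coding genes summed to 9293, 5694 and 3199 TPM at 75% epiboly and 19157, 19122 and 18375 TPM at 1 dpf. All mitochondrial features together took 14.8%, 14.7% and 10.8% of TPM at 75% epiboly and 9.79%, 10.1% and 9.36% at 1 dpf. That total includes the feature NC_002333.17, at 54333, 56131 and 58682 TPM at 75% epiboly and 5247, 9870 and 5862 TPM at 1 dpf. Mitochondrial and ribosomal protein genes were removed in the rescaled data, so their calls rest on the other 3 scalings.

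In glycolysis 23 of 37 genes were tested, 8 rose and 1 fell (median 0.43 relative to all genes). The enolase gene eno1a was 3.89, 2.78 and 4.41 TPM at 75% epiboly and 82.9, 72.5 and 61.03 TPM at 1 dpf. The glyceraldehyde-3-phosphate dehydrogenase gene gapdhs was 0, 5.24 and 4.67 TPM at 75% epiboly and 187, 228 and 199 TPM at 1 dpf, a log2 difference of 5.96 ± 0.67 (SE, limma adjusted p = 0.0004). The list as a whole summed to 1787, 1602 and 1404 TPM at 75% epiboly and 2566, 2732 and 2460.5 TPM at 1 dpf.

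**Figure D3:**
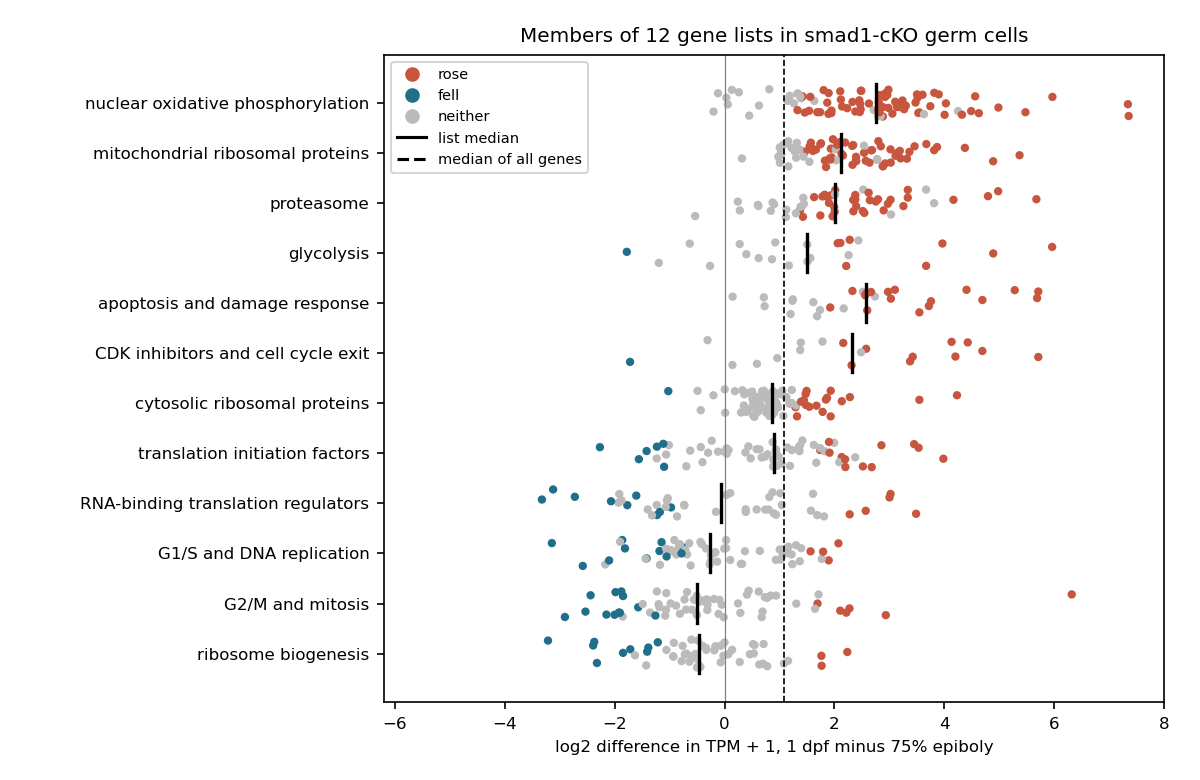
Log2 difference in TPM + 1 between 1 dpf and 75% epiboly (x axis) for every tested member of 12 lists (rows) in smad1-cKO PGCs. Red points rose, blue points fell, grey points did neither, thick bars are list medians and the dashed line is the median of all genes, 1.08. Members of oxidative phosphorylation lie mostly right of the line, and those of ribosome biogenesis mostly left of it.

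Genes of cytosolic translation differed by list. Of 79 cytosolic ribosomal protein genes 18 rose and 1 fell, with a median of -0.21 relative to all genes that became 0.16 after quantile normalization. The share that rose was near the 20.5% of all genes. rpl19 was 793, 478 and 769.7 TPM at 75% epiboly and 3034, 3175 and 3495 TPM at 1 dpf, a log2 difference of 2.28 ± 0.22 (SE, limma adjusted p = 0.000215). Whether reads of ribosomal protein genes were split with near-identical copies elsewhere cannot be read from TPM. Of 53 ribosome biogenesis genes 9 fell and 3 rose (median -1.55). The nucleolar protein gene ncl was 641, 531 and 723 TPM at 75% epiboly and 59.7, 84.9 and 58.3 TPM at 1 dpf, a log2 difference of -3.21 ± 0.24 (SE, limma adjusted p = 0.000128). The nucleolar chaperone gene npm1a was 1286, 1101 and 1697 TPM at 75% epiboly and 300.2, 326 and 194 TPM at 1 dpf and fell by 2.32 (limma adjusted p = 0.000376). The RNA methyltransferase gene fbl was 260.1, 233 and 188 TPM at 75% epiboly and 65.9, 71.99 and 65.7 TPM at 1 dpf and fell by 1.72 (limma adjusted p = 0.000669). Of 65 translation initiation factors 64 were tested, 12 rose and 6 fell (median -0.17, and 0.10 after quantile normalization). Their share that rose was likewise near that of all genes. Among the risers were the initiation factor subunit eif3g, at 215, 199.7 and 214 TPM at 75% epiboly and 941, 919 and 1041 TPM at 1 dpf, and eif4ebp1, a repressor of cap-dependent initiation, at 225, 188 and 166 TPM at 75% epiboly and 1046, 1287 and 1386 TPM at 1 dpf.

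RNA-binding regulators of translation fell more often than they rose. Of 46, 44 were tested, 9 fell and 5 rose (median -1.14 relative to all genes). The decay factor khsrp was 375, 325 and 350.0 TPM at 75% epiboly and 41.5, 28.8 and 32.8 TPM at 1 dpf, a log2 difference of -3.33 ± 0.23 (SE, limma adjusted p = 0.000116). The maternal RNA granule gene lsm14b was 33.3, 23.4 and 32.02 TPM at 75% epiboly and 2.06, 2.77 and 2.64 TPM at 1 dpf. Of 35 heat shock chaperones 4 fell and 2 rose (median -1.24). The mitochondrial chaperonin gene hspd1 was 149, 182 and 98.6 TPM at 75% epiboly and 34.02, 25.3 and 24.5 TPM at 1 dpf and fell by 2.29 (limma adjusted p = 0.000785), while the cytosolic chaperonin subunit cct4 was 214, 291 and 251 TPM at 75% epiboly and 648, 780.0 and 637 TPM at 1 dpf and rose by 1.45 (limma adjusted p = 0.000779). The inducible hsp70.3 was 66.9, 201 and 37.5 TPM at 75% epiboly and 6.23, 7.896 and 5.404 TPM at 1 dpf and fell by 3.44 (limma adjusted p = 0.002), though its near-identical neighbours make its reads uncertain.

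Cell division genes moved in both directions. Of 64 G2/M and mitosis genes 63 were tested, 12 fell and 6 rose (median -1.58 relative to all genes). The condensin gene smc4 was 49.3, 51.7 and 54.6 TPM at 75% epiboly and 12.6, 9.65 and 10.6 TPM at 1 dpf and fell by 2.15 (limma adjusted p = 0.000669). The mitotic kinase cdk1 was 233, 197 and 171 TPM at 75% epiboly and 959, 922 and 714 TPM at 1 dpf, a log2 difference of 2.11 ± 0.21 (SE, limma adjusted p = 0.00024). Its small subunit partner cks2 was 0, 1.64 and 2.27 TPM at 75% epiboly and 206, 214 and 97.9 TPM at 1 dpf, a log2 difference of 6.32 ± 0.54 (SE, limma adjusted p = 0.000167). The chromosomal passenger gene birc5a was 76.6, 76.7 and 65.5 TPM at 75% epiboly and 384, 310.3 and 335 TPM at 1 dpf. Of 60 G1/S and DNA replication genes 11 fell and 4 rose (median -1.34). The helicase gene mcm7 was 501, 360.3 and 428 TPM at 75% epiboly and 58.1, 150.1 and 109 TPM at 1 dpf, a log2 difference of -2.10 ± 0.35 (SE, limma adjusted p = 0.00194). The licensing factor gene cdt1 was 158, 187 and 106 TPM at 75% epiboly and 36.4, 37.2 and 45.6 TPM at 1 dpf and fell by 1.86 (limma adjusted p = 0.00134). In controls cdk1 was 281, 325 and 100.3 TPM at 75% epiboly and 333, 496 and 487 TPM at 1 dpf, and cks2 was 0, 0.499 and 5.26 TPM and then 30.9, 37.3 and 20.03 TPM. The knockout values of both genes at 1 dpf lay above all of these, but the difference in stage change was not called (limma adjusted p = 0.9998 for both).

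Many genes that restrain the cell cycle rose. Of 20 CDK inhibitor and cell cycle exit genes 19 were tested, 10 rose and 1 fell (median 1.24 relative to all genes). The CDK inhibitor cdkn1ca was 27.8, 19.3 and 35.5 TPM at 75% epiboly and 340.5, 293 and 262 TPM at 1 dpf, a log2 difference of 3.43 ± 0.28 (SE, limma adjusted p = 0.000161). The inhibitor cdkn1bb was 62.6, 49.2 and 26.98 TPM at 75% epiboly and 219, 193 and 256 TPM at 1 dpf, a log2 difference of 2.31 ± 0.34 (limma adjusted p = 0.00107). The list also holds the CDK-associated phosphatase gene cdkn3, at 2.804, 2.04 and 1.07 TPM at 75% epiboly and 56.7, 53.98 and 39.8 TPM at 1 dpf. The stress gene gadd45aa was 15.9, 0 and 2.803 TPM at 75% epiboly and 150.1, 198 and 305 TPM at 1 dpf. In all 4 genes every later value exceeded every earlier one, beside 62.2% of all genes without overlap between the stages.

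Genes of apoptosis and the response to DNA damage rose more often than not. Of 32 genes 29 were tested, 17 rose and none fell, and the median was 1.502 relative to all genes. The cyclin gene ccng1, induced by DNA damage, was 294, 213 and 133 TPM at 75% epiboly and 908, 1138 and 1739.5 TPM at 1 dpf, a log2 difference of 2.58 ± 0.34 (limma adjusted p = 0.000757). The ribosomal protein relative rps27l was 417, 67.6 and 199 TPM at 75% epiboly and 1728, 1859 and 2839 TPM at 1 dpf. The initiator caspase gene casp8 was 4.18, 2.61 and 1.49 TPM at 75% epiboly and 29.995, 50.05 and 71.7 TPM at 1 dpf. The survival factor gene mcl1a was 104, 75.5 and 63.5 TPM at 75% epiboly and 527, 425 and 471 TPM at 1 dpf, so members that promote and members that oppose cell death both rose. For ccng1, casp8 and rps27l, 1 dpf replicate 3, the library without skin keratins, was the highest, and the list summed to 5221, 5834 and 8581 TPM at 1 dpf against 1358, 816 and 704 TPM before.

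Among guidance and motility genes 42 of 44 were tested, 5 rose and 3 fell (median -0.63 relative to all genes). The chemokine receptor gene cxcr4b was 144, 530.5 and 147 TPM at 75% epiboly and 592, 628 and 670.2 TPM at 1 dpf. It was called higher as deposited (log2 difference 1.48 ± 0.47, limma adjusted p = 0.0299) but not under the other scalings (0.174, 0.275 and 0.214), and only leaving out 75% epiboly replicate 2 kept the call. Without any other library the adjusted p was 0.0818 to 0.112. The actin nucleation gene arpc3 was 259, 139 and 74.03 TPM at 75% epiboly and 909, 920.4 and 972 TPM at 1 dpf, a log2 difference of 2.74 ± 0.41 (SE, limma adjusted p = 0.00115). The related subunit arpc5b was 11.98, 15.3 and 6.86 TPM at 75% epiboly and 161, 189 and 217 TPM at 1 dpf. The small GTPase gene cdc42 was 49.5, 64.6 and 50.4 TPM at 75% epiboly and 292, 312 and 364 TPM at 1 dpf, a log2 difference of 2.54 ± 0.22 (limma adjusted p = 0.000181).

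Of 24 genes of DNA methylation and Polycomb 22 were tested, 2 fell and 1 rose (median -0.20 relative to all genes). The maintenance methylation cofactor gene uhrf1 was 31.5, 46.8 and 60.5 TPM at 75% epiboly and 8.76, 7.601 and 4.32 TPM at 1 dpf and fell by 2.58 (limma adjusted p = 0.00128). The de novo methyltransferase gene dnmt3bb.2 was 78.7, 61.6 and 39.6 TPM at 75% epiboly and 17.8, 19.99 and 15.9 TPM at 1 dpf and fell by 1.64 (limma adjusted p = 0.00444). The methyl-CpG reader gene mbd2 was 3.604, 0 and 1.58 TPM at 75% epiboly and 32.9, 51.2 and 51.1 TPM at 1 dpf and rose by 4.31 (limma adjusted p = 0.000778). Thus a maintenance cofactor and a de novo methyltransferase fell and a reader rose, while the other 19 tested members did neither. Among abundant genes that rose, the chromatin protein gene hmgb2b was 1586, 1184 and 1342 TPM at 75% epiboly and 5674, 6463 and 6583 TPM at 1 dpf, and the histone variant gene h2az2a was 1197, 1396 and 1032 TPM at 75% epiboly and 2624, 2753 and 2968 TPM at 1 dpf.

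Genes of differentiating tissues were examined next. Of 48 Hox genes, which mark position along the body, 29 were tested, 11 rose and none fell (median 1.05 relative to all genes, 0.68 after quantile normalization). The list summed to only 54.7, 16.3 and 112 TPM at 75% epiboly, so it had little room to fall. Without the filter 44 were tested, with a median of 0.79 relative to all genes. hoxa4a was 0, 0 and 1.44 TPM at 75% epiboly and 97.3, 126 and 65.4 TPM at 1 dpf, a log2 difference of 6.12 ± 0.48 (SE, limma adjusted p = 0.000134). The neighbouring-class gene hoxb5a was 0, 0 and 0.619 TPM at 75% epiboly and 59.5, 52.01 and 32.4 TPM at 1 dpf. Of 37 muscle genes 27 were tested, 10 rose and none fell, and 12 of those tested were listed at 0 in every 75% epiboly library. The median was 1.46 relative to all genes, or 1.03 without those 12. Troponin gene tnnc2 was listed at 0 and then 43.6, 16.7 and 19.6 TPM, actin gene acta1b at 0 and then 39.2, 10.6 and 16.97 TPM, and myosin light chain gene myl10 at 0 and then 178, 11.18 and 15.501 TPM. Replicate 1 was the highest for each, and the list summed to 35.3, 18.8 and 30.6 TPM at 75% epiboly and 1018, 234 and 221 TPM at 1 dpf (exact two-sided permutation p = 0.1, the smallest possible).

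Skin genes separated the 1 dpf libraries rather than the stages. Of 34 genes of skin and enveloping layer 31 were tested, 2 rose and 1 fell. The keratin gene krt4 was 11.1, 0.106 and 123 TPM at 75% epiboly and 1568, 1894 and 0.755 TPM at 1 dpf (limma adjusted p = 0.266), and without 1 dpf replicate 3 it was called higher (0.0292). The keratin gene cyt1 was 2.47, 0 and 8.49 TPM at 75% epiboly and 1429, 1433 and 2.65 TPM at 1 dpf. The list summed to 556, 533 and 985 TPM at 75% epiboly and 7752, 9202 and 480.3 TPM at 1 dpf. Its median was 1.32 relative to all genes with all libraries and 0.74 without the 5 genes listed at 0 in all 75% epiboly libraries. With replicate 3 as the only 1 dpf library it was -2.78. That last median covers only the 21 members that passed the filter in those libraries, so the genes differ as well. A member that rose, the annexin gene anxa1a, was 3.77, 0 and 4.19 TPM at 75% epiboly and 148, 193 and 193 TPM at 1 dpf, and was as high in replicate 3 as in the others. Control PGCs showed the same kind of spread at 1 dpf, with krt4 at 1243, 47.1 and 1.01 TPM.

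In the other tissue lists few members met the strict rule. Of 39 neural genes 31 were tested, 3 rose and 2 fell, and the summed level was 167 to 348 TPM at 75% epiboly and 288 to 744 TPM at 1 dpf. The brain fatty acid binding protein gene fabp7a was 0, 0 and 0.631 TPM at 75% epiboly and 271, 215 and 119 TPM at 1 dpf, and the neuronal gene stmn1b was 0, 0 and 1.56 TPM at 75% epiboly and 50.2, 14.9 and 21.9 TPM at 1 dpf. Of 18 blood genes tested none rose and 1 fell by that rule, of 12 crest and pigment genes none did either, and of 9 endothelial genes 1 rose. As deposited, more were called higher, namely 12 neural, 5 blood, 3 crest and pigment and 6 endothelial genes. Of all genes 44.5% were called higher as deposited, a share that only the endothelial list exceeded among these. Under all 4 scalings 2 crest and pigment genes were called lower, beside 9.87% of all genes. Of 17 endoderm, yolk and liver genes 2 rose and 2 fell, and of 9 genes of lateral plate, kidney and gonad soma 2 rose. The mesenchyme factor gene hand2 was listed at 0 in all 75% epiboly libraries and was 54.2, 42.6 and 11.03 TPM at 1 dpf. The part of these levels that came from other cells in the sort was not tested.

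**Figure D4:**
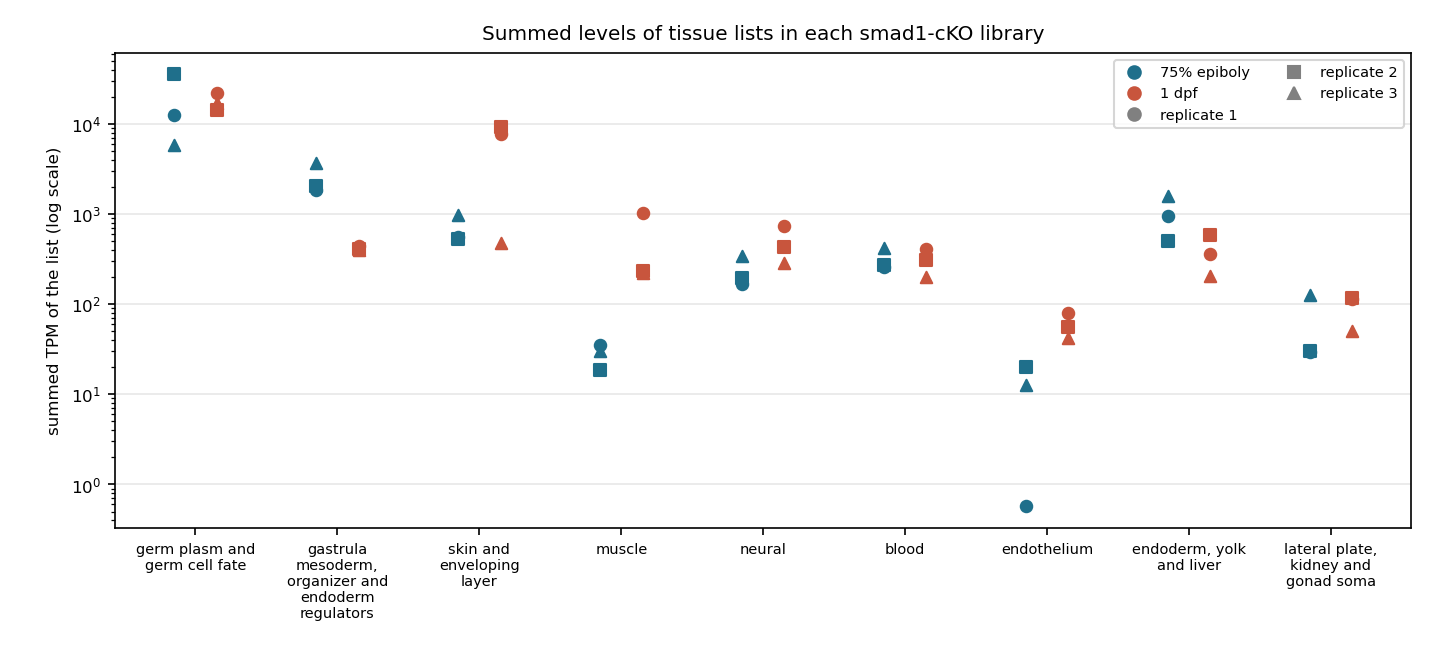
Summed TPM of 9 lists of tissue genes (columns, log scale) in each smad1-cKO library, blue for 75% epiboly and red for 1 dpf, with symbol shapes for replicates. Skin transcripts are high in 1 dpf replicates 1 and 2 only (7752 and 9202 TPM against 480.3 TPM in replicate 3), and muscle is highest in replicate 1 (1018 TPM).

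A few genes with very large rises follow. The membrane protein gene itm2bb was 0, 0 and 0.143 TPM at 75% epiboly and 136, 234 and 208 TPM at 1 dpf. The ubiquitin-like interferon response gene isg15 was 22.9, 0 and 10.2 TPM at 75% epiboly and 649, 956 and 2004 TPM at 1 dpf, a log2 difference of 7.38 ± 1.07 (SE, limma adjusted p = 0.00105). The selenoprotein gene selenom was 0.587, 0 and 1.12 TPM at 75% epiboly and 242, 187 and 216 TPM at 1 dpf, and the stress-induced nuclear protein gene nupr1b was 0.771, 0 and 0.63957 TPM at 75% epiboly and 154, 162 and 329 TPM at 1 dpf. The gene cd74b, a relative of the invariant chain that escorts MHC class II, was listed at 0 and then 127, 191 and 109 TPM. The sulfotransferase gene sult2st2 was 0, 0.334 and 0.0601 TPM at 75% epiboly and 148, 119 and 156 TPM at 1 dpf. Apart from isg15, these genes were at 1.12 TPM or less in each 75% epiboly library.

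The stage change in smad1-cKO PGCs was then set beside that in control PGCs. In control PGCs 7085 of 16536 genes were called higher and 1828 lower (53.9% in all). Of 8599 genes called in smad1-cKO PGCs and tested in both, 7076 were called in the same direction in controls and 0 in the opposite one. Across 15515 genes tested in both, Pearson's r between the log2 differences was 0.92 and Spearman's rho 0.91. These values describe genes, which are not independent replicates. Both genotypes of a stage stand in the same deposited table, so anything that differs between the tables enters both stage changes. With limma, none of 16567 genes was called for a difference in stage change (0%), and 628 (3.79%) had an unadjusted p under 0.05. With the replicate number as a block, which pairs the smad1-cKO and control libraries, limma also called 0 genes, and 1038 had an unadjusted p under 0.05. Without control 75% epiboly replicate 3 that count was 1035, again with 0 calls. The smallest adjusted p was 0.9998. The absence of calls does not show that the genotypes changed alike, since the targeted gene smad1 was not called either. Leaving out 1 of the 12 libraries gave 0 to 3 calls. The libraries whose removal gave any were 1 dpf replicates 1 (2 calls) and 3 (3 calls) of the knockout, and 75% epiboly replicate 1 and 1 dpf replicates 1 and 3 of the controls (1 call each).

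Named values bound this comparison. The smad1 level went from a mean of 2.96 to 13.5 TPM in the knockout and from 13.7 to 138 TPM in controls, a difference in stage change of -1.29 ± 0.56 (SE, limma adjusted p = 0.9998), which was not called. The genes with the smallest p included the muscle gene myl13, listed at 0 and then 139.5, 15.8 and 15.8 TPM in the knockout and at most 0.314 TPM in controls. It was highest in replicate 1, the library with the most muscle transcript, and was not called (limma adjusted p = 0.9998). The same held for myl10, at most 0.141 TPM in controls (limma adjusted p = 0.9998). The F-box gene fbxo16 was 0, 0 and 0.15021 TPM at 75% epiboly and 7.898, 7.88 and 14.4 TPM at 1 dpf in the knockout and 0.324 to 3.55 TPM in the control libraries, and was not called either (limma adjusted p = 0.9998).

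For the apoptosis and damage response list, the median stage change was 2.58 in the knockout and 1.75 in controls on the log2 scale. Of 29 members tested in both, 21 had the larger change in the knockout and 8 in controls, with a median difference of 0.75 beside 0.07 for all genes. The members are not independent replicates. In the knockout at 1 dpf the summed list was highest in replicate 3 (8581 TPM, against 5221 and 5834 TPM in replicates 1 and 2). Outside that list, isg15 was 649, 956 and 2004 TPM at 1 dpf in the knockout and 137, 602 and 577 TPM in controls. Its difference in stage change was 3.61 ± 1.5004 (SE, limma adjusted p = 0.9998). It was not called, nor was any member of the list, so these values describe the libraries and do not separate the genotypes.

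**Figure D5:**
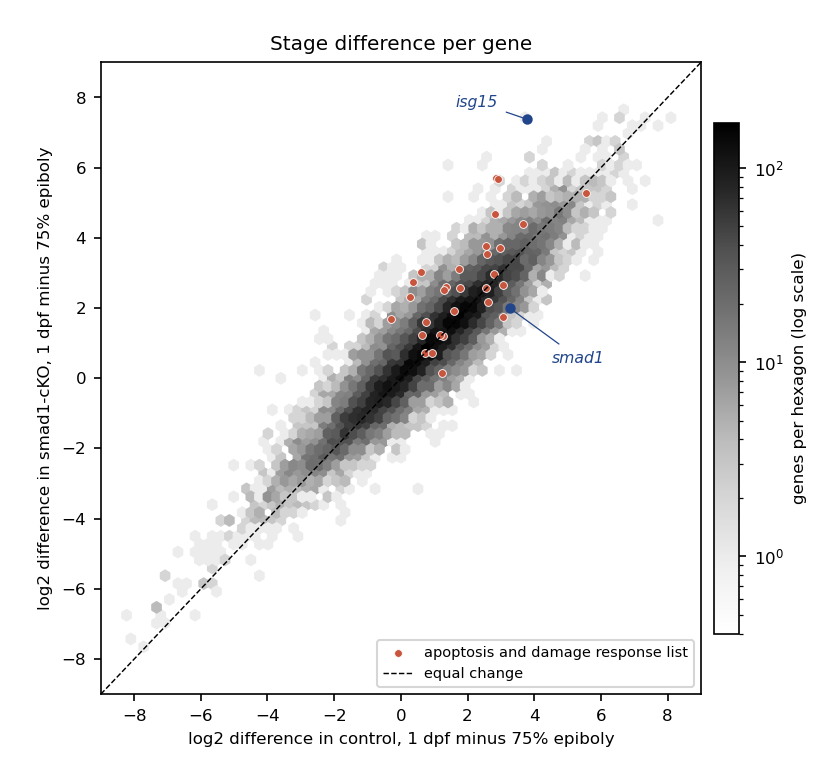
Log2 difference between 1 dpf and 75% epiboly per gene in control PGCs (x axis) and smad1-cKO PGCs (y axis) for 15515 genes, shaded by the number of genes per hexagon. Red points are the apoptosis and damage response list, blue points are smad1 and isg15 and the dashed line marks equal change. Genes follow the line, with smad1 below it and isg15 above it, neither of which was called.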

How the data were processed

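RNA of sorted PGCs was amplified with a full-length single-cell mRNA kit and sequenced, per the labels' protocols. STAR 2.7.10b, StringTie 2.2.1 and the build GRCz11 stand in the submitters' processing notes. The TPM values are the authors' own, deposited as 1 table per stage, with 32520 features each, 896 of them without a name. The amplicon read counts (aligned, with insertion, with deletion) were also deposited by the authors, and shares were computed from them. Other tables of the series were not used here.

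The tables of both stages were joined by gene ID. Genes with a mean of at least 1 TPM over the 6 libraries were tested on log2(TPM + 1), a scale that understates the change of low genes, with limma 3.58.1 in R 4.3.3 (intensity trend, Benjamini-Hochberg adjustment, threshold 0.05). The difference from controls was an interaction term over 12 libraries. Count models were not used, since TPM keep no depth. The fits were tested on simulated data. The alternatives were other pseudocounts, filters and scalings, no trend, the replicate number as a block, a shared spread and each library left out. The demand that a call hold under all 4 scalings and all 6 left-out libraries was added after the scalings were seen. Libraries were left out on the deposited scale only for that demand.

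Named genes were the Smads and 6 germ cell genes, called genes with the largest differences or highest levels, from every list the 5 members with the smallest p and the 4 with the highest level at most, and the 8 smallest p of the difference from controls. From these, the genes given in the text were picked for known roles, and some genes are not reported here. The members and lists were chosen with earlier results of these data known.

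Same-numbered smad1-cKO libraries of both stages did not deviate together (r of 0.02, -0.05 and -0.07 over 16018 genes). Same-numbered smad1-cKO and control libraries had positive correlations, at 75% epiboly (0.17, 0.19 and 0.40) and at 1 dpf (0.30, 0.11 and 0.30). Differently numbered libraries were not compared, so a true pairing is not shown. A fit of the difference from controls with the replicate number as a block also called 0 genes.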

Additional observations from a re-analysis of the deposited data

How the results depend on the processing

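Against 7316 higher and 1628 lower calls, requiring a mean of 5 TPM left 4841 higher calls. Quantile normalization gave 3512 higher and 3730 lower calls, trimmed-mean scaling 2587 lower, and rescaling without mitochondrial, ribosomal and abundant clone-named features 2552 lower. With 1 dpf replicate 3 alone, an alternative chosen after seeing the data in which that lone library is assumed to vary like the others, there were 2122 higher and 252 lower calls. Leaving out 1 library at a time gave 5680 to 7160 higher and 1133 to 1676 lower calls. In controls, quantile normalization gave 3905 higher and 3956 lower calls, trimmed-mean scaling 3056 lower and the rescaling 2744 lower. The difference from controls gave 1 call with no filter and 0 to 3 with 1 library left out. With the replicate block the stage change gave 7094 higher and 1455 lower calls, and the numbers of the smad1-cKO libraries do not pair the stages. The cause of these shifts was not tested.

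Of 115 named genes, 108 kept direction and side of the threshold under quantile normalization, 108 under trimmed-mean scaling and 60 with 1 dpf replicate 3 alone. The sign turned for dnd1 under quantile normalization (-0.46), trimmed-mean scaling (-0.55), the rescaling (-0.58), replicate 3 alone (-0.44) and without 75% epiboly replicate 3 (-0.72) or 1 dpf replicate 1 (-0.12). It turned for ca15b under trimmed-mean scaling (-0.45), the rescaling (-0.48) and without 75% epiboly replicate 1 (-0.17) or 3 (-0.28) or 1 dpf replicate 1 (-0.11), and for krt4 with replicate 3 alone (-2.76). Left-out libraries gave -0.72 to 0.97 for dnd1 and -0.28 to 1.08 for ca15b. Neither dnd1, ca15b nor krt4 was called on the deposited scale. Depth is unknown, so low TPM carry an unknown counting error.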

Other observations

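Counts of gene groups outside the comparisons above follow. Of all genes 20.5% rose and 5.85% fell, and among these groups only the spliceosome list exceeded the share that rose. Among 25 spliceosome snRNP and LSm genes 11 rose and 3 fell, with a median of 0.02 relative to all genes that turned to -0.13 after trimmed-mean scaling. The core splicing protein gene snrpd3l was 308, 289 and 337 TPM at 75% epiboly and 1477, 1235 and 1619.9 TPM at 1 dpf, and lsm4 was 88.9, 91.8 and 45.5 TPM at 75% epiboly and 581, 480.1 and 496 TPM at 1 dpf. Of 342 znf zinc finger genes 247 were tested, 10 rose and 10 fell (median -1.09), both below the shares of all genes. Of 55 collagen genes 15 were tested and 2 rose: col5a1 was at most 0.00748 TPM at 75% epiboly and 7.59, 5.50 and 4.28 TPM at 1 dpf, and col1a2 was listed at 0 and then 13.5, 13.5 and 6.25 TPM. The part of these levels that came from other cells in the sort was not tested.

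Abundant features with clone names, to which the files give no role, differed in how far they moved. AL935186.9 was 60069, 69812 and 63540.0 TPM at 75% epiboly and 12448, 11377 and 11614 TPM at 1 dpf, with a log2 difference of -2.45 as deposited and -0.03 after quantile normalization. AL935186.7 was 53814, 63529 and 59882 TPM at 75% epiboly and 12774, 11622 and 12041 TPM at 1 dpf, with -2.28 as deposited and 0.33 after quantile normalization. The features that follow fell. AL935186.10 was 69094, 103640.0 and 137600.0 TPM at 75% epiboly and 734, 643 and 999 TPM at 1 dpf. CT583728.5 was 6555, 7618 and 5779.9 TPM at 75% epiboly and 119, 107 and 108 TPM at 1 dpf. Control PGCs showed similar levels of AL935186.10, at 61464, 86440.2 and 115665 TPM and then 1057, 529 and 555 TPM.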
